A study of Mus musculus with 2 samples.

Results

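The Mir7 family of the mouse is made of 3 microRNA (miRNA) genes, Mir7b, Mir7-1 and Mir7-2, and its miRNAs were followed here in the adrenal gland. The members were taken by name: of the 2202 miRNA genes in the count tables, these 3 carry a GENCODE M21 symbol of the family, and the rule uses no measured value, although the family was picked for description with earlier results of these data known. The strain was C57BL/6J, inbred and widely used. Small RNA libraries with inserts below 30 nt were sequenced from 1 group with 2 replicates. A free-text label gives the tissue as wild type and male, the field for sex says not collected, and age and stage are unknown. The replicates are numbered as biological replicates and have separate biosample records, but they name the same donor record. Nothing shows that they came from separate animals, so p-values compare these 2 libraries only, and a difference between them may be technical. Those of the exact binomial test below set that difference against counting noise alone and hold no spread between libraries. No treatment, genotype or tissue was contrasted.

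A miRNA gene is transcribed as a hairpin, from which a 5p and a 3p strand of about the length of a small RNA are cut. The strand loaded into an Argonaute protein pairs with messenger RNAs mainly through its seed, bases 2 to 8 from the 5′ end. miR-7 is an old, strongly conserved miRNA known from neuroendocrine tissue, among it pancreatic islets, the pituitary and the hypothalamus. In the adrenal gland the neuroendocrine cells are the chromaffin cells of the medulla, which release catecholamines, while the surrounding cortex makes steroid hormones. These libraries were made from bulk tissue, so they do not show which cells held the miRNA.

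The sequences of the mature 5p forms, with bases 2 to 8 in capitals, show what unites the family. They are taken from RefSeq on GRCm38.p6, where all 3 members matched by symbol and position.
miR-7a-5p of Mir7-1: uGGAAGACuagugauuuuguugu
miR-7a-5p of Mir7-2: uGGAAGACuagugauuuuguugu
miR-7b-5p of Mir7b: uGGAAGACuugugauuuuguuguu
The seed GGAAGAC was found in these 3 mature forms and in no other of the 1738 mature miRNAs in the RefSeq table. The letters occur anywhere in 10 of the 2202 annotated hairpins, and the first 9 bases, UGGAAGACU, in the 3 members. The 5p forms from Mir7-1 and Mir7-2 did not differ in any of their 23 bases. Counted from the 5′ end, miR-7b-5p differed from miR-7a-5p by the substitution A10U, outside the seed, and it is annotated with 1 more U at its 3′ end.

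The 3p strands, shown in the same way, tell the 3 loci apart.
miR-7a-1-3p of Mir7-1: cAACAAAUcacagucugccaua
miR-7a-2-3p of Mir7-2: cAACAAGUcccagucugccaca
miR-7b-3p of Mir7b: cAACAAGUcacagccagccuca
Between miR-7a-1-3p and miR-7a-2-3p there were 3 substitutions, A7G, A10C and U21C, of which the first lies in the seed. Between miR-7a-2-3p and miR-7b-3p there were 4, C10A, U14C, U16A and A20U, all outside it, so these 3p strands share the seed AACAAGU and that of Mir7-1 has its own, AACAAAU. Although Mir7j and Mir7k bear similar symbols, RefSeq names their mature forms let-7j and let-7k, and neither has the miR-7 seed.
let-7j of Mir7j: uGAGGUAUuaguuugugcuguuau
let-7k of Mir7k: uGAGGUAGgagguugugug
They were therefore no members.

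The loci lie on separate chromosomes, and the whole hairpins, with the mature arms in capitals, are shown because they set what the counts can tell about each locus.
Mir7b: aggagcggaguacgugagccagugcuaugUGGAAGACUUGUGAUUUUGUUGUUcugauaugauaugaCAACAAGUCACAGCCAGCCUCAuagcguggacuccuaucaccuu
Mir7-1: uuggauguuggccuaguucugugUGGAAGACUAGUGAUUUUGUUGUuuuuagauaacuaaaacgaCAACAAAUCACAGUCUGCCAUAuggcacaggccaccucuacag
Mir7-2: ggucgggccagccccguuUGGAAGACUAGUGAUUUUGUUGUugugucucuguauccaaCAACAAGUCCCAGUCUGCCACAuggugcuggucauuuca
Mir7b (ENSMUSG00000065491.1) lies on the plus strand of mm10 at chr17:56242988-56243098, in no annotated host gene. The lincRNA AC026385.1 ends 183 bases upstream of it on the same strand. Mir7-1 (ENSMUSG00000065434.1) lies on the minus strand at chr13:58392779-58392886, within Hnrnpk, the gene of an abundant RNA-binding protein. All 12 Hnrnpk transcripts that span the hairpin hold it in an intron, which in Hnrnpk-202 is the last of 17. Mir7-2 (ENSMUSG00000065609.1) lies on the plus strand at chr7:78888277-78888373, outside any annotated gene, with Aen as the nearest gene, 7481 bases downstream. Folded with RNAfold, the hairpins had predicted minimum free energies of -35.0 kcal/mol for Mir7b, -46.8 for Mir7-1 and -40.5 for Mir7-2. In these predictions 17 of 24 bases of the 5p arm of Mir7b were paired, 20 of 23 of that of Mir7-1 and 19 of 23 of that of Mir7-2.

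The shared sequence limits which reads could be given to Mir7-1 and Mir7-2. Their hairpins have a run of 24 bases in common, which holds all of miR-7a-5p and 1 base more, at bases 24 to 47 of Mir7-1 and 19 to 42 of Mir7-2. Among windows of 18 nt, 7 of 91 in Mir7-1 and 7 of 80 in Mir7-2 were found in the other hairpin. At 22 nt the number was 3 in each, at 24 nt it was 1, and at 25 nt there was none. In Mir7b no window from 18 to 26 nt was found in any other of the annotated hairpins, and its longest run in common with either copy was 14 bases. The deposited tables set reads that map to several places aside in a summary line, which held 6718323 reads in replicate 1 and 2415794 in replicate 2. An exact read of miR-7a-5p belongs to both copies, so the counts of Mir7-1 and Mir7-2 leave it out. By exact sequence, their 3p strands and any 5p reads that reach beyond the 24 shared bases can be placed at 1 locus. Longer, shorter or shifted 5p reads that stay within those bases cannot. Placement does not show where a read was made. Past those bases Mir7-1 continues with U and Mir7-2 with G. A 5p read from Mir7-2 with U bases added at its 3′ end could thus match Mir7-1, which was not tested. The counts per hairpin do not tell which of the reads that can be placed were counted. The values of Mir7-1 and Mir7-2 below are thus uncertain as levels of miR-7a and hold only a part of what these loci can give, of unknown size. How far the whole genome holds further copies was not analysed here.

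**Figure D1:**
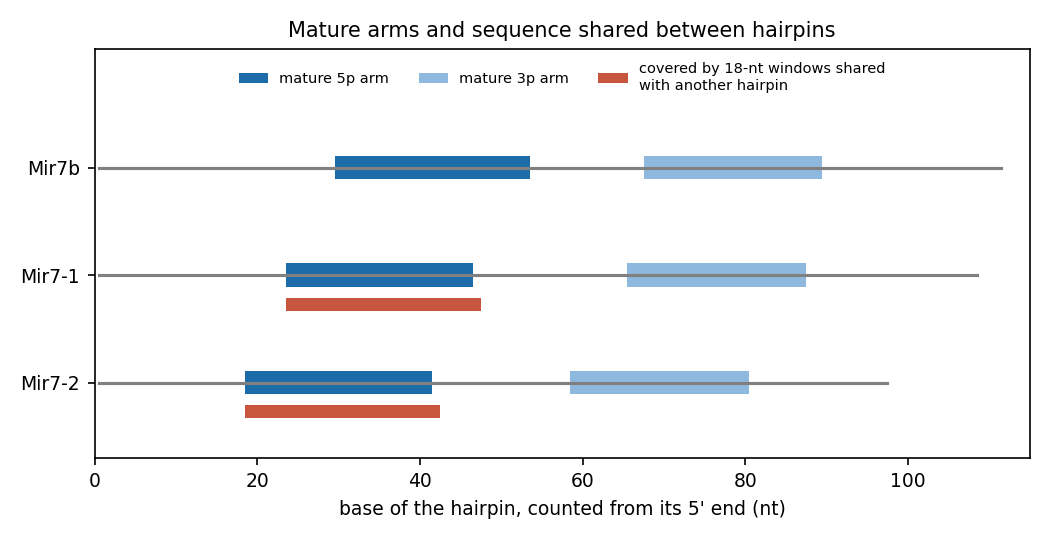
The 3 Mir7 hairpins drawn to scale, with the base counted from the 5′ end in nt on the horizontal axis; dark blue bars are mature 5p arms, light blue bars 3p arms, and red bars the stretch covered by 18-nt windows that also occur in another annotated hairpin. The red stretch covers the whole 5p arm of Mir7-1 and Mir7-2, from bases 24 to 47 and 19 to 42, and Mir7b has none.

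The libraries held 10263894 counts on the strand of miRNA genes in replicate 1 and 3525666 in replicate 2, and unmapped reads made up 13.8% and 41.4% of their reads. CPM below is the number of counts per 1000000 of these assigned counts. Of the miRNA genes used to check the tissue, none defines adrenal cortex. The endothelial gene Mir126a, the smooth muscle genes Mir143 and Mir145a and the leukocyte genes Mir142, Mir150 and Mir223 were all present. The 5 muscle genes summed to 2.14 and 2.55 CPM, with Mir1a-1, Mir1a-2, Mir208a and Mir208b at 0, of which the Mir1a copies share windows of 20 nt. Other genes typical of other tissues were detected: the liver gene Mir122 had 104 and 97.6 CPM, the kidney genes Mir192 and Mir194-2 had 46.0 and 70.1 CPM and 25.6 and 11.3 CPM, and of 5 epithelial genes Mir200b and Mir429 were detected, at 12.0 and 16.5 CPM and 14.0 and 10.2 CPM. Mir194-2 shares windows of 20 nt with Mir194-1. The erythroid genes Mir451a and Mir144 summed to 8357 CPM in replicate 1 and 1804 CPM in replicate 2.

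Mir7b carried most of the counts of the family. It had 48680 counts in replicate 1 and 12541 in replicate 2, or 4743 CPM (exact Poisson 95% interval 4701 to 4785) and 3557 CPM (3495 to 3620). The replicates did not overlap within counting error, and replicate 1 was the higher. The mean was 4150 ± 838 CPM (SD, n = 2), which is 0.415% ± 0.084 of assigned counts. By level Mir7b stood at rank 31 of the 2202 genes in replicate 1 and 37 in replicate 2. These intervals cover counting error only, since copies of 1 molecule made in library preparation cannot be told from separate molecules.

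Mir7-1, the copy within Hnrnpk, was read at a far lower level. Its counts were 4920 and 885, or 479 CPM (466 to 493) in replicate 1 and 251 CPM (235 to 268) in replicate 2. Here too replicate 1 was the higher, and the spread was the widest of the 3 members, with a mean of 365 ± 161 CPM (SD, n = 2) and an SD of 44.2% of the mean. For Mir7b that figure was 20.2% and for Mir7-2 it was 19.8%. Mir7-1 stood at rank 99 in replicate 1 and 126 in replicate 2.

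Mir7-2, the intergenic copy, differed between the replicates in the other direction. It had 1809 counts in replicate 1 and 824 in replicate 2, or 176 CPM (168 to 185) and 234 CPM (218 to 250). Replicate 2 was the higher, and the mean was 205 ± 40.6 CPM (SD, n = 2). Its rank was 142 in replicate 1 and 131 in replicate 2. None of the 3 members had a count on the opposite strand in either library, where a count of 0 allows up to 0.292 CPM and 0.851 CPM.

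**Figure D2:**
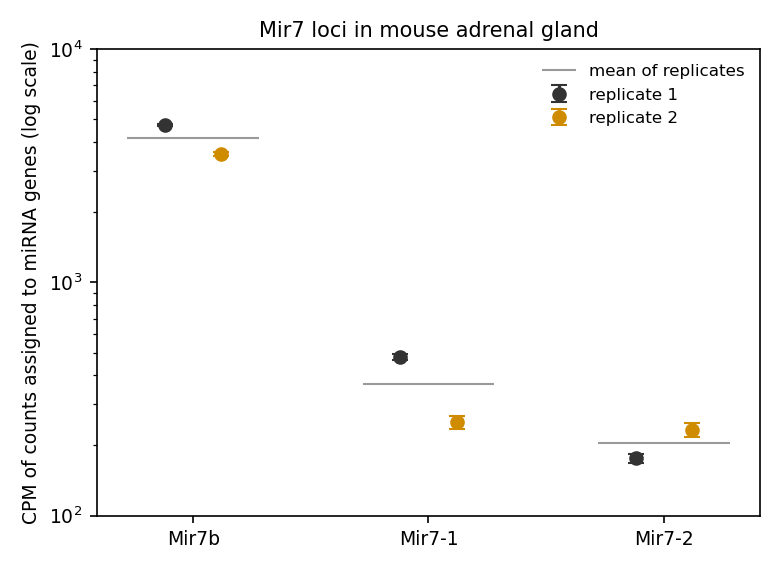
CPM of the 3 Mir7 loci on a log axis, with 1 point per replicate, bars for exact Poisson 95% intervals and a grey line at the mean. Mir7b lies at 4743 and 3557 CPM, well above both copies, and replicate 1 is the higher for Mir7-1 (479 against 251 CPM) and the lower for Mir7-2 (176 against 234 CPM).

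In the order of levels Mir7b came before Mir7-1 and Mir7-2 in both replicates, with no overlap of its values and theirs. In mean CPM Mir7-1 stood above Mir7-2, but the means were 365 and 205 CPM with an SD of 161 CPM for Mir7-1, so the order of these copies rests on replicate 1. In replicate 2 Mir7-1 made up 51.8% of the counts of the pair, with an exact binomial (Clopper-Pearson) 95% interval from 49.4% to 54.2%, which includes an even split. A read spans an arm and not the hairpin, so CPM was not divided by length elsewhere. Per 100 nt of annotated hairpin, the mean levels were 3739 CPM for Mir7b, 338 CPM for Mir7-1 and 211 CPM for Mir7-2, and in replicate 2 Mir7-2, at 241 CPM per 100 nt, stood above Mir7-1, at 232. Because exact miR-7a-5p reads are left out for both copies and miR-7b-5p reads are kept, the gap between Mir7b and the copies compares unlike sets of reads.

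Together the 3 loci had 55409 counts in replicate 1 and 14250 in replicate 2, or 5398 and 4042 CPM. The family mean was 4720 ± 959 CPM (SD, n = 2), which is 0.472% ± 0.096 of the reads assigned to miRNA genes. Within the profile each member was flanked by genes of like level. Mir30e (4366 ± 664 CPM) stood just above Mir7b and Mir130a (4025 ± 846 CPM) just below it. Mir7-1 lay between Mir142, a leukocyte miRNA gene, at 374 ± 85.1 CPM and Mir106b at 360 ± 38.5 CPM, and Mir7-2 between Mir542 at 207 ± 9.42 CPM and Mir543 at 204 ± 59.2 CPM. All 6 of these neighbours differed in mean from the member by less than its SD, and the ranges of their replicates overlapped.

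**Figure D3:**
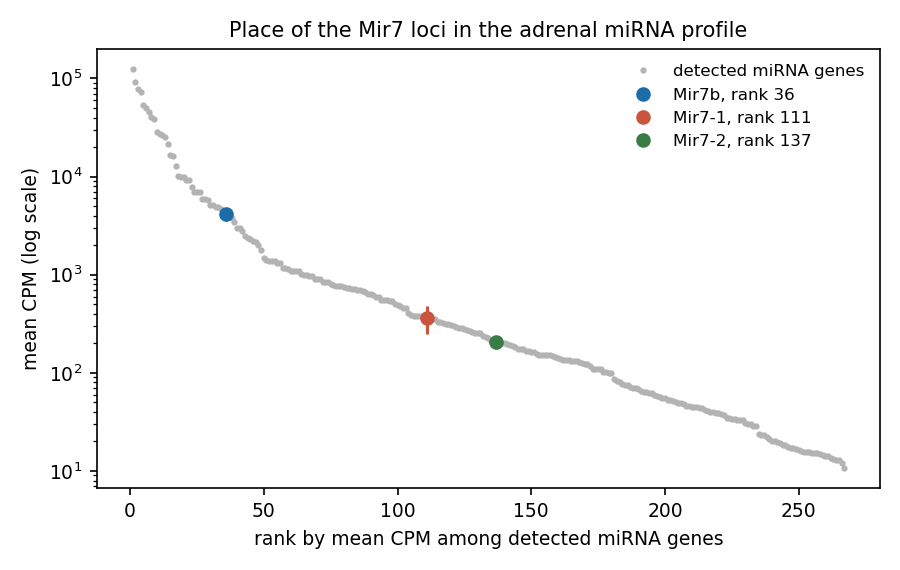
Mean CPM on a log axis against rank for the 267 miRNA genes with at least 10 CPM in both replicates; coloured points are the Mir7 loci, with a line between their replicate values. Mir7b lies at rank 36, on the steep upper part of the curve, and Mir7-1 and Mir7-2 at ranks 111 and 137, near its middle.

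The genes whose values over the 2 libraries were most like those of a member were found by distance on log2(CPM + 1) in both replicates. Nearest to Mir7b was Mir382, with 4906 and 2592 CPM at a distance of 0.46, followed by Mir541 (0.48) and Mir30e (0.53). Nearest to Mir7-1 was Mir15b, with 387 and 266 CPM at a distance of 0.32, followed by Mir467d (0.42) and Mir20a (0.44). Mir7-2 had closer company, Mir668 with 172 and 247 CPM at 0.085, Mir125b-1 at 0.092 and Mir543 at 0.14. Mir467d and Mir125b-1 share windows of 20 nt with other hairpins, so their levels are uncertain. With 2 libraries such a likeness holds only a level and a replicate ratio.

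Whether the replicates differed beyond counting noise was asked gene by gene with a two-sided, exact binomial test on library sizes scaled by TMM in edgeR and with Benjamini-Hochberg adjustment over 443 genes with at least 10 counts. It compares these 2 libraries, not conditions. Of the 3 members 2 were higher in replicate 1, against a background of 31.6% of the genes tested, and 1 was higher in replicate 2, against 21.2%. In either direction all 3 passed, where 52.8% of the genes tested did, and 87.7% of the 162 genes with a mean of 100 to 10000 CPM, the range in which the members lie. A call for each member is thus near what genes of this depth showed. In bulk tissue fewer cells of a type and less RNA per cell cannot be told apart.

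The log2 ratio of replicate 2 over replicate 1 was -0.43 for Mir7b (95% interval -0.46 to -0.40, adjusted p = 3.48e-207 by the exact binomial test), so Mir7b was 1.35-fold higher in replicate 1. For Mir7-1 the ratio was -0.95 (-1.06 to -0.85, adjusted p = 4.46e-83 by the same exact test), or 1.93-fold. For Mir7-2 it was 0.39 (0.27 to 0.51, adjusted p = 9.11e-10 by the exact test), or 1.31-fold higher in replicate 2. Read against the 267 genes detected in both replicates, whose median absolute log2 ratio was 0.39, Mir7b and Mir7-2 were ordinary. Their ratios were larger than those of 55.4% and 49.4% of these genes, and that of Mir7-1 was larger than those of 87.3%. edgeR's exact test was also run with a spread shared by all tested genes, a common coefficient of variation of 32.9%. That spread was estimated from these same 2 libraries, so the difference under test was also its noise term. The test could therefore hardly pass a gene and cannot decide whether the members differed. The unadjusted p was 0.526 for Mir7b, 0.168 for Mir7-1 and 0.571 for Mir7-2 in that exact test, which called 1 of 443 genes and had 27 with an unadjusted p below 0.05.

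The share of Mir7b in the family was nearly the same in both libraries, although its level was not. It made up 87.9% of family counts in replicate 1 (exact binomial 95% interval 87.6% to 88.1%) and 88.0% in replicate 2 (87.5% to 88.5%), intervals that overlap. The rest, Mir7-1 and Mir7-2 in sum, made up 12.1% and 12.0%. Inside that rest the copies divided differently. Mir7-1 took 73.1% of the counts of the pair in replicate 1 (72.0% to 74.2%) and 51.8% in replicate 2 (49.4% to 54.2%), so these intervals lay apart. All these intervals cover counting error only and hold no spread between libraries. As a ratio, there were 2.72 counted reads of Mir7-1 for each counted read of Mir7-2 in replicate 1 and 1.07 in replicate 2. Exact miR-7a-5p reads are left out for both copies, so these shares and ratios divide placed reads only. They do not give the share of miR-7b in all miR-7. The sum of the copies was 656 CPM in replicate 1 and 485 CPM in replicate 2, so the sum, like Mir7b, was higher in replicate 1, although Mir7-2 alone was higher in replicate 2.

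This shift was set beside other loci that give 1 mature sequence from several copies, a measure chosen after the values of the pair had been seen. The RefSeq table held 97 such genes, of which 94 were matched in the tables and 35 were detected, that is, reached 10 CPM in each library. By mean CPM they were led by Mirlet7f-2 (7922), Mir16-1 (2336) and Mirlet7c-2 (1422), and Mir7-1 stood at place 8 and Mir7-2 at place 12 among the 94. Of 60 pairs of loci with a mature sequence in common, 15 had both members detected, and some of these share a gene. A pair needed only 1 such sequence, on either arm, so the other arm could differ, as it does for Mir7-1 and Mir7-2. The log2 ratio of copies changed between the replicates by 1.34 for Mir7-1 and Mir7-2, the largest of the 15. Next were Mir181a-1 and Mir181a-2 with 0.82 and Mir199a-2 and Mir199b with 0.82, and the median of the pairs was 0.32. The copies of Mir16, Mirlet7f and Mir30c kept their ratio within 0.14. Unmapped reads and depth also differed between the libraries, as given above, and their part in the shift was not tested.

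**Figure D4:**
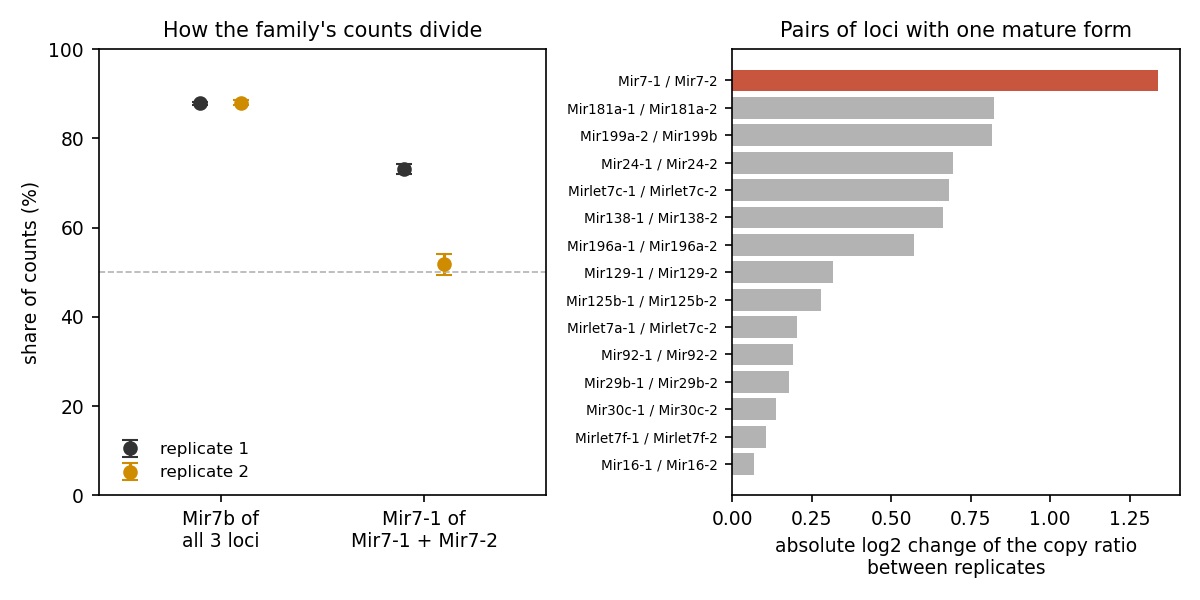
Left, the share of counts in percent taken by Mir7b among the 3 loci and by Mir7-1 among the pair of copies, with 1 point per replicate, exact binomial 95% intervals and a dashed line at 50%. Right, the absolute log2 change of the copy ratio between replicates for the 15 pairs with both loci detected; the share of Mir7b is 87.9% and 88.0%, and the bar of Mir7-1 and Mir7-2 is the longest at 1.34.

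Other miRNA genes reported in pituitary, pancreatic islet or chromaffin cells put the family in its setting. Bulk tissue does not show which cells held them. The list holds Mir375, a regulator of insulin secretion in islets, Mir183, Mir96 and Mir182 of 1 sensory and neuroendocrine cluster, Mir184, Mir153, and Mir132 and Mir212, a pair induced by cyclic AMP signalling. All 8 were matched and 6 were detected. Mir375 dominated, with 68022 CPM in replicate 1 and 76044 CPM in replicate 2, far above Mir7b. Mir132 followed with 1302 and 673 CPM, below Mir7b and above both copies. Mir153 had 61.2 and 156 CPM, Mir182 had 96.7 and 69.2 CPM, Mir212 had 63.3 and 42.0 CPM and Mir183 had 59.7 and 39.4 CPM, all below Mir7-2. Mir184, with 13.1 and 9.08 CPM, and Mir96, with 4.77 and 1.99 CPM, missed 10 CPM in 1 or both replicates.

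Their directions were mixed, like those of the Mir7 loci. By the exact binomial test 5 of the 8 were higher in replicate 1 (Mir132, Mir212, Mir183, Mir182 and Mir96), 2 were higher in replicate 2 (Mir375 and Mir153) and Mir184 missed the threshold. Over all 443 genes tested that binomial test called 31.6% higher in replicate 1 and 21.2% higher in replicate 2, set against counting noise alone. The median log2 ratio of replicate 2 over replicate 1 was -0.57 over this list and -0.17 over all 443 genes tested. Mir132, at -0.97, was closest in ratio to Mir7-1, whereas Mir375, at 0.14, and Mir153, at 1.34, went with Mir7-2. Mir7b and Mir375, the abundant genes of this setting, thus went in opposite directions between the libraries. The absolute log2 ratio of the 267 genes detected in both replicates had a lower quartile of 0.18 and a median of 0.39. That of Mir375 lay below this quartile and that of Mir7b near the median. The erythroid and leukocyte genes differed too, the former higher in replicate 1 as given above and the latter higher in replicate 2, with 508 and 876 CPM in sum. Their part in the ratios of the Mir7 loci was not tested.

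Neuronal miRNA genes were looked at because the medulla holds nerve endings and ganglion cells. Of 13 genes 4 were detected, led by Mir137 with 595 and 823 CPM, Mir138-1 with 73.7 and 33.2 CPM and Mir128-1 with 14.7 and 32.3 CPM. Mir124a-1, Mir124a-2, Mir124a-3, Mir9-1 and Mir9-2 had no count and Mir9-3 had 0 and 1. The copies of Mir124a, Mir9, Mir128, Mir138 and Mir218 each share at least 1 window of 20 nt with another hairpin, so these counts do not give their level, as with miR-7a-5p. Of the 6 neuronal genes tested, the exact binomial test called 2 higher in replicate 1 and 2 higher in replicate 2, and 2 missed the threshold, beside 52.8% called in either direction over all genes tested.

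**Figure D5:**
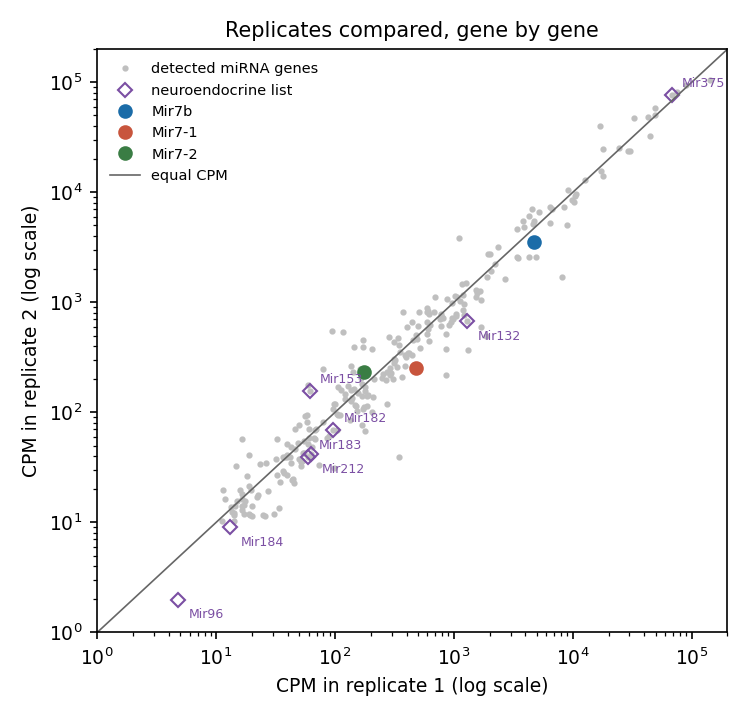
CPM in replicate 1 against CPM in replicate 2, both on log axes, for the 267 detected miRNA genes (grey), the 8 genes of the neuroendocrine list (open diamonds) and the Mir7 loci (coloured), with a line of equal CPM. Mir7b and Mir7-1 lie below the line with Mir132, and Mir7-2 lies above it with Mir153.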

How the data were processed

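The authors deposited raw counts per miRNA gene, 1 table per library, on genome mm10 and annotation GENCODE M21, per the file headers of the accompanying descriptions. Adapter trimming is linked in the labels; the aligner and the counting tool are not named in those sources. The tables have no header and 3 columns of counts; the second was taken as counts on the strand of the gene, because it held the largest sum and no ambiguous read. All 2202 identifiers matched GENCODE M21. Unmapped, multimapping and unassigned reads stayed out of library sizes.

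CPM was computed over assigned counts. Replicate ratios used 0.5 added counts, TMM (edgeR 4.0.16, R 4.3.3), the exact binomial test for genes with at least 10 counts, and an adjusted p below 0.05. The code of this test was checked on simulated data that held counting noise and no spread between replicates. DESeq2 1.42.0 gave other size factors. Python 3.11.15, scipy 1.17.1 and RNAfold 2.7.2 did the rest. Text names the members, for each the 3 nearest detected genes, the whole neuroendocrine list and the 3 leading genes of the neuronal and copy lists; the rank neighbours and copy pairs were added after their values were seen. Members and lists were chosen with earlier results of these data known.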

Additional observations from a re-analysis of the deposited data

How the results depend on the processing

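The log2 ratios between replicates kept their direction under all 8 settings run, from -0.48 to -0.35 for Mir7b, -0.99 to -0.87 for Mir7-1 and 0.35 to 0.47 for Mir7-2. Count minimums could not change these ratios, and edgeR's exact test used the same TMM scaling. The other settings changed only library sizes, because the members had the same counts without regard to strand. The settings are thus no separate checks of direction. Other scalings (DESeq2 size factors, total counts, totals without Mirlet7g), other count minimums and counts without regard to strand left all 3 members past the threshold. With edgeR's exact test and a common dispersion the ratios were -0.43, -0.95 and 0.39, 0 of 3 members passed, and the calls over all genes fell from 234 to 1. That dispersion comes from the same 2 libraries, so the difference under test was also its noise term and few calls could result. A denominator of all mapped reads adds the multimapping reads and the uniquely mapped reads not counted to a miRNA gene. With it the level was 2378 CPM for Mir7b, 210 CPM for Mir7-1, 117 CPM for Mir7-2 and 2704 CPM for the family. Per base of gene length the share of Mir7b was 87.2%. With 1 replicate left out, the level ran from 3557 to 4743 CPM for Mir7b, 251 to 479 CPM for Mir7-1, 176 to 234 CPM for Mir7-2 and 4042 to 5398 CPM for the family, and the share of Mir7b from 87.9% to 88.0%. No paired analysis was possible because the series holds 1 group. Counting error was smaller than the spread between the 2 libraries for each member. For Mir7-1 and Mir7-2 the number of reads set aside as multimapping is unknown.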

Other observations

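The reference sequence holds a locus known for miR-7. The circular RNA Cdr1as, transcribed opposite Cdr1, is known to bind miR-7 at many sites. The complement of the miR-7 seed, GTCTTCC, was found 79 times on the strand opposite the 1554 bases of the annotated Cdr1 transcript and 0 times on the strand of that transcript. Over the first 1554 bases of the 52759 GENCODE M21 transcripts at least that long, 19.7% held it on the opposite strand. On their own strand 13.9% did, with overlapping matches counted. The next highest number on the opposite strand was 11. These matches describe the reference and no level of that RNA, which was not measured here.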
